A study of Oryza sativa with 12 samples.

Results

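The first stretches of rice chromosomes 11 and 12 are near copies of each other, and OsPIN1c and OsPIN1d lie in them, 1 on each chromosome. The members described here are the identifiers Os11g0100000 to Os11g0149999 and Os12g0100000 to Os12g0149999 at 1 FPKM or more in at least 3 of 12 libraries. FPKM is a fragment count scaled by gene length and library size. The deposited tables list 613 identifiers in these windows, 298 on chromosome 11 and 315 on chromosome 12. Of these, 213 were below that filter and 6 were left out beforehand. The remaining 394 members, the same number at each end, are part of 32552 listed identifiers, of which 21250 passed the same filter. Os11g0137000 and Os12g0133800 are the identifiers taken here for the place of OsPIN1c and OsPIN1d and are not members.

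Expression was measured by RNA sequencing in leaf primordia (leaves just forming at the growing tip) of rice (Oryza sativa). Growth conditions were the same for all 12 libraries: 15 h of light at 28 °C, 9 h of dark at 24 °C and 70% relative humidity. The total RNA used is given as 2 µg. The groups were ospin1c ospin1d (knockout of both OsPIN1c and OsPIN1d), ospid C1 and ospid C2 (each labelled as an OsPID knockout) and WT, the cultivar Nipponbare, with 3 libraries each. The age of the plants, how the knockouts were made, and whether a library is 1 plant or a pool are not given in these sources. The p-values therefore measure the spread between these libraries, which may be technical. In whole primordia, fewer cells of a type and less RNA per cell cannot be told apart. No separate lines of ospin1c ospin1d are labelled, so loss of the carriers and other traits of that line cannot be told apart.

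PIN proteins export auxin from cells and so set the direction in which this hormone moves. Kinases of the PINOID type, to which OsPID belongs, phosphorylate PIN proteins. In grasses the ends of chromosomes 11 and 12 are known for their high similarity, kept up in part by exchange of sequence between the copies. Genes there can have a near-identical partner on the other chromosome. How reads that fit both copies were counted, or whether strand was used, is not stated in the labels or files. Reads may therefore be shared between the ends, and between overlapping or antisense neighbours. The deposited tables pair no identifier with a name, and 0 of the 394 members matched a RefSeq table of 39387 rice genes (assembly ASM3414082v1), so members are given by identifier, with no name, role or partner. The tissue label was not checked against marker genes for the same reason. In rice gene nomenclature the number after g grows along the chromosome.

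The read totals behind the FPKM values, recovered from their spacing, were 15211547 to 16422849 over the 12 libraries. By them, 1 read on a gene of 1 kb is worth 0.0609 to 0.0657 FPKM. Reads recovered for the listed identifiers made up 99.96% to 99.99% of these totals. The totals thus count reads on listed identifiers, and the full sequencing depth is not known. Replicate 1 of ospid C2 stood apart from the other ospid libraries. The leading principal component of all tested identifiers, with 35.3% of their variance, placed this library at 6.79, the other 5 ospid libraries at 25.7 to 56.4, and ospin1c ospin1d and WT at -38.3 to -27.7. The lowest correlation within a group over the members, 0.966, was between replicates 1 and 3 of ospid C2.

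The targeted identifiers did not separate the groups. Os11g0137000 stood at 0.658, 0.492 and 0.523 FPKM in ospin1c ospin1d, at 0.630, 1.35 and 0.807 in ospid C1, at 0.519, 0.662 and 0.648 in ospid C2, and at 0.545, 0.878 and 0.794 in WT, below the filter. Os12g0133800 stood at 0.661, 1.13 and 1.66 FPKM in ospin1c ospin1d, at 1.32, 0.971 and 1.28 in ospid C1, at 1.55, 1.57 and 0.890 in ospid C2, and at 0.867, 2.39 and 1.46 in WT. Os12g0133800 had 13 to 34 reads per library in ospin1c ospin1d and 17 to 49 in WT, and its log2 change was -0.24 (limma adjusted p = 0.701). Levels per gene do not show whether the transcripts carry a mutation, so the genotype labels were not checked by them.

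Next to this locus, Os12g0133850 fell in ospin1c ospin1d. It is the first member after Os12g0133800 in identifier order. Os12g0133850 stood at 3.17, 3.10 and 2.71 FPKM in ospin1c ospin1d, at 6.98, 5.95 and 6.91 in ospid C1, at 8.17, 7.92 and 7.39 in ospid C2, and at 8.14, 6.38 and 9.67 in WT. All 3 ospin1c ospin1d libraries lay below all other 9, on 81 to 91 recovered reads against 191 to 290 in WT. The log2 change against WT, on the log2(FPKM + 1) scale used for every change here, was -1.17 (SE 0.140, adjusted p = 0.000932 by limma over all 21250 identifiers). Against ospin1c ospin1d the mean of the ospid lines was higher by 1.04 (SE 0.122, adjusted p = 0.000413). Both calls held in all 19 alternatives tried. Whether this identifier overlaps Os12g0133800, or shares reads with it or with the other end, was not tested.

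Of the other near neighbours, 1 was called in any comparison. This next member, Os12g0133900, was at 2.01, 2.1 and 1.62 FPKM in ospin1c ospin1d and at 2.02, 3.06 and 2.65 in WT, with a log2 change of -0.29 (limma adjusted p = 0.475). It was higher in the ospid lines, at 2.35 to 4.86 FPKM, than in ospin1c ospin1d, by 0.73 on the log2 scale (SE 0.156, limma adjusted p = 0.0100). Its rise of 0.62 in ospid C1 against WT (limma adjusted p = 0.0404) was lost without any library except ospid C2 replicates 1 and 3 (adjusted p = 0.0520 to 0.124). It was also lost with median-ratio scaling (0.0720), quantile normalization (0.124), no filter (0.0677) and without the other groups in the fit (0.0606). The third member after the locus, Os12g0134000, and the 3 before it, Os12g0133201, Os12g0133600 and Os12g0133700, had no call in any comparison. Around Os11g0137000 the 3 nearest members on each side (Os11g0136500, Os11g0136701, Os11g0136800, Os11g0137100, Os11g0137200 and Os11g0137250) also had none. Their mean levels over the 12 libraries ran from 1.30 FPKM in Os11g0136500 to 9.62 FPKM in Os11g0136701.

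**Figure D1:**
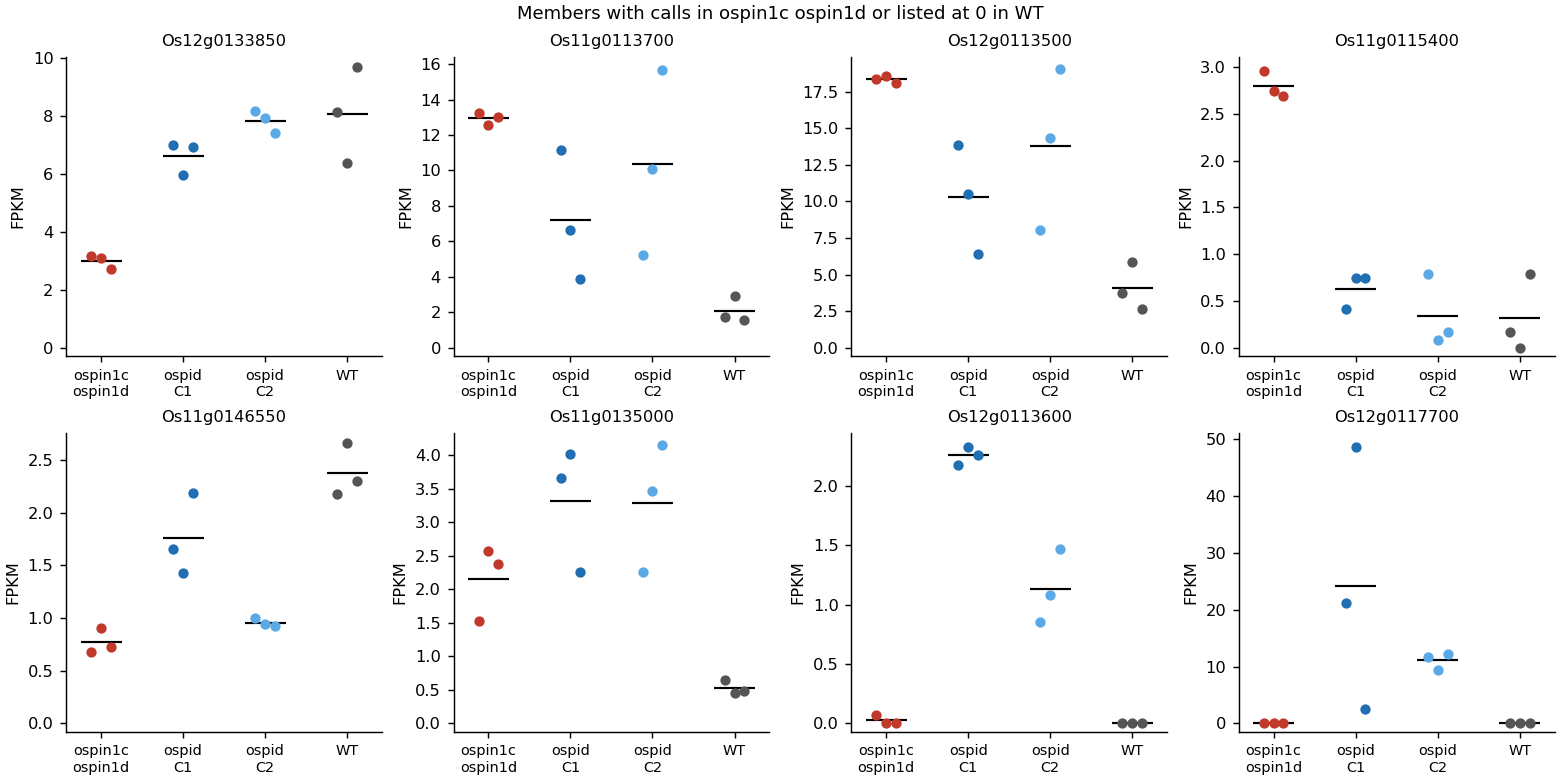
FPKM of 8 members in each library, by group (points, 1 per library; lines, group means of 3). Os12g0133850 lay at 2.71 to 3.17 FPKM in ospin1c ospin1d, below all other libraries, and Os12g0117700 was listed at 0 in ospin1c ospin1d and WT.

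In all, 6 of 394 members (1.52%) changed in ospin1c ospin1d against WT at an adjusted p under 0.05, against 2.31% of all tested identifiers. Of these, 4 rose and 2 fell, beside 1.32% and 0.984% of all tested identifiers. By end, 4 were at that of chromosome 11 and 2 at that of chromosome 12. They include Os11g0115400, Os11g0135000 and Os11g0146550, described below, which passed the filter through groups where they are high. The share was thus not above the background at the ends that hold the targeted loci. The same window at the start of the other 10 chromosomes gave 1.26% to 8.75%. The median log2 change of the members was -0.0178, beside -0.0114 over all tested identifiers. The count was 11 without ospid C2 replicate 1, 15 when the other groups left the fit, and 5 to 9 without any other single library. All 6 calls were among those 11 and among those 15. Over the members, 7 had every ospin1c ospin1d library above all 9 others and 15 had every one below, beside 2.44% and 4.48% of all tested identifiers. WT stood above all mutant libraries in 10 members and below them in 18, beside 3.01% and 3.76%.

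Among the called members, a pair of identifiers of nearly the same number rose, Os11g0113700 and Os12g0113500. Os11g0113700 was at 13.3, 12.6 and 13 FPKM in ospin1c ospin1d, at 11.1, 6.65 and 3.87 in ospid C1, at 5.24, 10.1 and 15.7 in ospid C2, and at 1.75, 2.93 and 1.58 in WT. Os12g0113500 was at 18.4, 18.6 and 18.1 FPKM in ospin1c ospin1d, at 13.9, 10.5 and 6.40 in ospid C1, at 8.04, 14.3 and 19.0 in ospid C2, and at 3.72, 5.85 and 2.65 in WT. Every mutant library was above every WT library for both. The spread was narrow in ospin1c ospin1d and wide in the ospid lines.

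Os11g0113700 rose by 2.2 (SE 0.362, limma adjusted p = 0.00860) and Os12g0113500 by 1.98 (SE 0.319, limma adjusted p = 0.00764) on the log2 scale in ospin1c ospin1d, and both calls held in all 19 alternatives. In ospid C2 Os11g0113700 rose by 1.79 (limma adjusted p = 0.0105), also in all 19. The change of Os12g0113500 there, 1.52 (limma adjusted p = 0.0126), lost its call without WT replicate 3 (adjusted p = 0.0506) or ospid C2 replicate 3 (adjusted p = 0.0546), and when the other groups left the fit (adjusted p = 0.0576). In ospid C1 both were called, at 1.34 and 1.14 (limma adjusted p = 0.0332 and 0.0366). That call was lost for both without WT replicate 1 (adjusted p = 0.0918 and 0.0934), WT replicate 3 (0.0860 and 0.104), ospid C1 replicate 1 (0.133 and 0.145) or ospid C1 replicate 2 (0.0513 and 0.0625). For Os12g0113500 it was also lost without any ospin1c ospin1d library (adjusted p = 0.0507 to 0.0518) or ospid C2 replicate 2 (0.0533). Both were also lost with no filter (0.0622 and 0.0674) and when the other groups left the fit (0.0570 and 0.0688). These comparisons share the WT libraries.

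Os11g0115400 is the 1 member that reached 1 FPKM in ospin1c ospin1d and in no other group. It stood at 2.96, 2.74 and 2.69 FPKM in ospin1c ospin1d, at 0.411, 0.743 and 0.745 in ospid C1, at 0.784, 0.0792 and 0.169 in ospid C2, and at 0.165, 0 and 0.786 in WT. The ospin1c ospin1d libraries lay above all others, on 33 to 36 recovered reads against 0 to 10 in WT. It passed the filter through the group where it is high, so its log2 changes are given as a description: 1.57 for ospin1c ospin1d against WT, and -1.38 for the ospid lines against ospin1c ospin1d. At such levels they depend on the pseudocount, and with 0.1 in place of 1 they were 3.34 and -2.53.

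Os11g0135000 was low in WT and higher in every mutant library. It was at 1.52, 2.57 and 2.38 FPKM in ospin1c ospin1d, 3.66, 4.01 and 2.25 in ospid C1, at 2.26, 3.46 and 4.15 in ospid C2, and 0.645, 0.455 and 0.486 in WT. It passed the filter through mutant libraries alone, where it is high, so its log2 changes against WT are given as a description. They were 1.47 in ospid C1 and 1.47 in ospid C2, or 2.41 and 2.40 with a pseudocount of 0.1. In ospin1c ospin1d the change was 1.03, or 1.82 with that pseudocount. The call in ospin1c ospin1d was lost without WT replicate 1, 2 or 3 (limma adjusted p = 0.0721, 0.102 and 0.126). It was also lost without ospin1c ospin1d replicate 2 or 3 (0.134 and 0.135) or ospid C2 replicate 2 (0.0616), and with no filter (0.0643).

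Os11g0146550 fell in ospin1c ospin1d and ospid C2. It was at 0.674, 0.909 and 0.721 FPKM in ospin1c ospin1d, 1.65, 1.43 and 2.19 in ospid C1, at 1.0, 0.938 and 0.926 in ospid C2, and 2.18, 2.66 and 2.29 in WT. The ospin1c ospin1d and ospid C2 libraries lay below those of WT, while ospid C1 overlapped WT. It reached 1 FPKM in every WT and ospid C1 library and in no ospin1c ospin1d library. Its log2 changes against WT are therefore given as a description, -0.93 in ospin1c ospin1d and -0.79 in ospid C2. In ospid C1 the change was -0.30 (limma adjusted p = 0.177), and ospid C2 differed from ospid C1 by -0.49 (limma adjusted p = 0.305). With 9 to 37 reads per library over ospin1c ospin1d, ospid C2 and WT, these values rest on few reads, and with a pseudocount of 0.1 the changes of ospin1c ospin1d and ospid C2 against WT were -1.52 and -1.23.

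**Figure D2:**
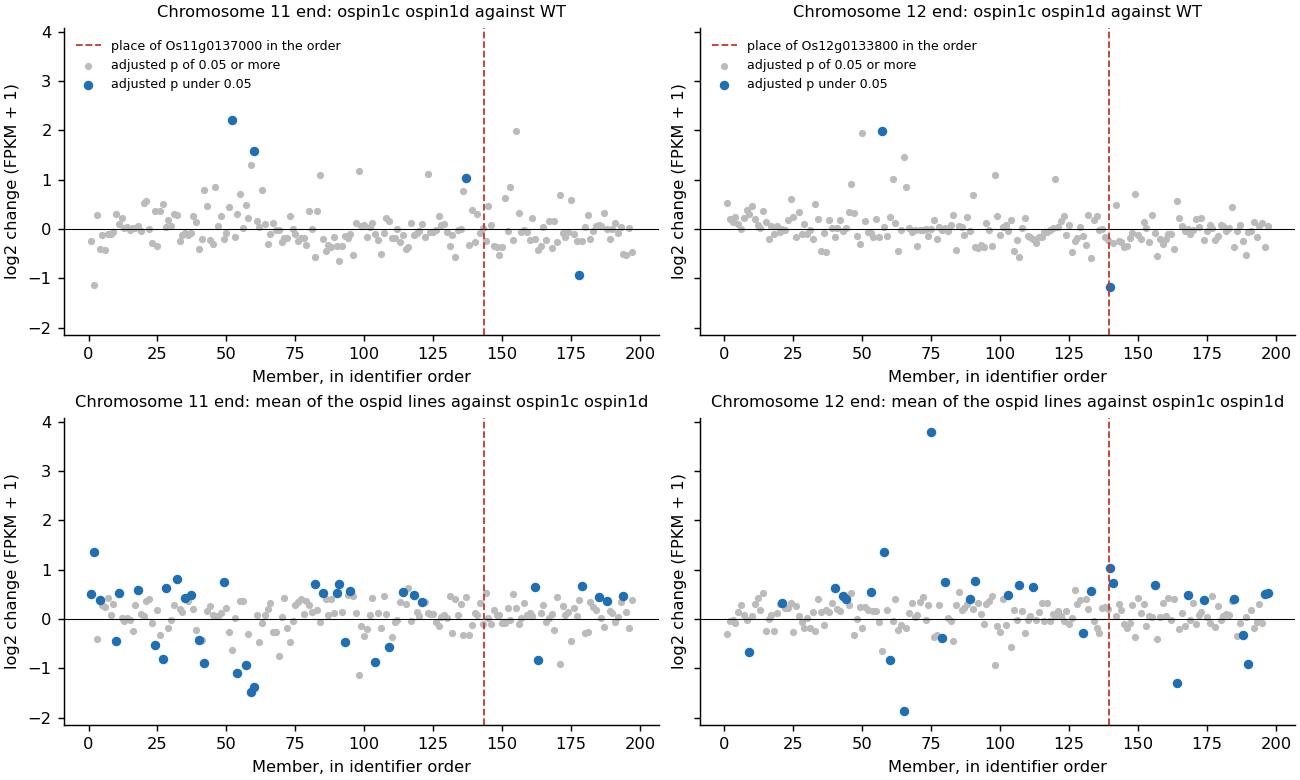
Log2 change of each of the 394 members in identifier order, at the chromosome 11 end (left) and the chromosome 12 end (right), for ospin1c ospin1d against WT (top) and for both ospid lines together against ospin1c ospin1d (bottom); coloured points had an adjusted p under 0.05. In the bottom panels calls were spread along both ends. The top panels held 4 calls at the chromosome 11 end and 2 at the chromosome 12 end. Beside the place of Os12g0133800, the point at -1.17 is Os12g0133850.

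In ospid C1, 57 members (14.5%) changed against WT, 44 up and 13 down, against 15.5% of all tested identifiers, of which 10.2% rose and 5.30% fell. In ospid C2, 36 members (9.14%) changed, 19 up and 17 down, against 10% of all tested identifiers, of which 4.0% rose and 6.01% fell. The other 10 chromosome starts gave 11.2% to 20.2% and 6.92% to 12.8% in these comparisons. At the chromosome 11 end 27 and 18 members were called, and at the chromosome 12 end 30 and 18. All ospid libraries lay above all ospin1c ospin1d and WT libraries in 20 members and below them in 11, beside 5.19% and 3.37% of all tested identifiers. In both directions together the members' share did not exceed the background. Rises alone made up 11.2% of members in ospid C1 and 4.82% in ospid C2, near the 10.2% and 4.0% of all tested identifiers. Both comparisons share the WT libraries.

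The balance of rises and falls in ospid C1 depended on the scaling between libraries. As deposited, the median log2 change in ospid C1 was 0.143 over the members and 0.150 over all tested identifiers. With median-ratio scaling these were -0.0137 and 0, and 23 members rose and 26 fell, where 5.93% and 8.97% of all tested identifiers did. In ospid C2 the members' median was 0.0650 on deposited values. After median-ratio scaling 19 rose and 19 fell, where 4.50% and 7.05% of all tested identifiers did. The members' medians thus lay close to those of all tested identifiers under both scalings.

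The ospid counts moved with single libraries. In ospid C1, leaving out WT replicate 1, 2 or 3 gave 17, 25 or 29 members. Leaving out ospin1c ospin1d replicate 2 or 3 gave 36 or 34, ospid C1 replicate 1 or 3 gave 15 or 31, and ospid C2 replicate 2 gave 29. In ospid C2, leaving out WT replicate 1, 2 or 3 gave 23, 21 or 22 members, and its own replicate 1, 2 or 3 gave 60, 16 or 14. With only the groups compared in the fit it was 22 for ospid C1 and 12 for ospid C2.

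A pair of members was at or near 0 outside the ospid lines. Os12g0117700 stood at 21.2, 48.7 and 2.59 FPKM in ospid C1 plants and at 11.7, 9.45 and 12.3 FPKM in ospid C2 plants, on 17 to 321 recovered reads, while every ospin1c ospin1d and WT library listed it at 0. Any log2 change against groups at 0 depends on the pseudocount, and the range within ospid C1 was wide. This feature is short, at least 423 bases.

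Os12g0113600, the member just after Os12g0113500, stood at 2.17, 2.33 and 2.26 FPKM in ospid C1, at 0.857, 1.08 and 1.46 in ospid C2, and at 0.0748, 0 and 0 in ospin1c ospin1d, and was listed at 0 in WT. It had 29 to 31 reads in the ospid C1 libraries, 12 to 19 in ospid C2 and 1 read in all in the other 6 libraries. Although it neighbours Os12g0113500 in number, it did not share that member's level in ospin1c ospin1d.

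These members passed the filter through the ospid libraries, where they are high, so their levels are a description with no test. In all, 12 members (3.05%) reached 1 FPKM in ospid libraries and in no other, against 1.36% of all tested identifiers. They were 1 at the chromosome 11 end (0.508%) and 11 at the chromosome 12 end (5.58%). Whether the ends differ in this was not tested. Such members had to differ between the groups in this respect. The counts of called members include 4 of these 12: Os12g0117700, Os12g0113600, Os11g0109400 and Os12g0143400. Those calls are not evidence of a difference. For Os11g0109400 and Os12g0143400 the log2 change in ospid C1 against WT was 0.74 and 0.59.

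The largest other rises in the ospid lines were in Os11g0139700 and Os12g0112000, 2 members that were also high in ospin1c ospin1d. Os11g0139700 was at 38.2, 42.2 and 68.3 FPKM in ospin1c ospin1d, 83.1, 67.9 and 37.5 in ospid C1, at 20.8, 67.4 and 106 in ospid C2, and 15.9, 7.36 and 12.4 in WT. Os12g0112000 was at 33.4, 24.2 and 21.6 FPKM in ospin1c ospin1d, 37.1, 17.4 and 14.9 in ospid C1, at 10.1, 31.1 and 45.2 in ospid C2, and 7.82, 4.18 and 6.44 in WT. All mutant libraries were above those of WT for both, with the lowest mutant value of each in ospid C2 replicate 1.

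For Os11g0139700 the ospid C1 log2 change was 2.29 (limma adjusted p = 0.0174), that of ospid C2 2.13 (limma adjusted p = 0.0238), and 1.99 in ospin1c ospin1d did not pass (limma adjusted p = 0.0737). The first was lost without WT replicate 2 (adjusted p = 0.0554) or ospid C1 replicate 1 (0.0767). The second was lost without WT replicate 2 or 3 (0.0855 and 0.0574) or ospid C2 replicate 2 or 3 (0.0849 and 0.0934), with no filter (0.0536) and when the other groups left the fit (0.0868). For Os12g0112000 they were 1.68 (limma adjusted p = 0.0373), 1.87 (0.0294) and, not called, 1.95 in ospin1c ospin1d (0.0595). Both calls of this member were lost without WT replicate 1, 2 or 3 (adjusted p = 0.0522 to 0.103) and without 3 other libraries in ospid C1 (ospid C1 replicate 1, ospin1c ospin1d replicate 2 or ospid C2 replicate 2, 0.0513 to 0.148). In ospid C2 the call was lost without replicate 2 or 3 of that line (0.103 and 0.117) and when the other groups left the fit (0.0901). With no filter both were lost (0.0699 and 0.0648).

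Among the falls, Os11g0128300 was lowest in ospid C2. It was at 23.2, 18.6 and 23.2 FPKM in ospin1c ospin1d, 15.4, 15.7 and 16.2 in ospid C1, at 5.70, 10.4 and 8.83 in ospid C2, and 30.6, 19.4 and 21.1 in WT. All ospid libraries were below all others. The log2 change in ospid C2 was -1.41 (SE 0.204, limma adjusted p = 0.00191), and in ospid C1 -0.53 (limma adjusted p = 0.0907). The difference between the ospid lines, -0.89, did not pass (limma adjusted p = 0.180).

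Os11g0111000 was at 12.8, 15.7 and 14.2 FPKM in ospin1c ospin1d, 11, 14.6 and 11.9 in ospid C1, at 7.75, 10.1 and 7.71 in ospid C2, and 20.8, 20.6 and 16.3 in WT. Every mutant library was below every WT library. The log2 change in ospid C2 was -1.09 (SE 0.149, limma adjusted p = 0.00150), which held in all 19 alternatives, as did the ospid C2 call of Os11g0128300. In ospid C1 it was -0.58 (limma adjusted p = 0.0282), lost without WT replicate 1 or 2 (adjusted p = 0.0872 and 0.0764) or ospid C1 replicate 1 or 3 (0.110 and 0.0708), and when the other groups left the fit (0.0612).

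Os11g0141400 averaged 21.8 ± 2.11 FPKM in ospin1c ospin1d, 12.2 ± 3.95 in ospid C1, 12.1 ± 4.03 in ospid C2 and 31.0 ± 11.8 in WT (SD, n = 3 each). It fell by 1.27 in ospid C1 (limma adjusted p = 0.0207) and by 1.28 in ospid C2 (limma adjusted p = 0.0210) on the log2 scale. WT replicate 1 was the highest library at 44.6 FPKM, and without it both calls were lost (adjusted p = 0.0691 and 0.0722). The ospid C1 call was also lost without ospid C1 replicate 1 (0.0870) and the ospid C2 call without ospid C2 replicate 3 (0.0862). When the other groups left the fit both were lost (0.0519 and 0.0717). Os12g0138050, Os12g0147200 and Os12g0140200 fell in ospid C1 by 1.17, 0.97 and 0.93 on the log2 scale (limma adjusted p = 0.0273, 0.0359 and 0.0220). Without WT replicate 1 all 3 calls were lost (adjusted p = 0.0896, 0.115 and 0.0702). Those of Os12g0138050 and Os12g0147200 were also lost without ospid C1 replicate 1 (0.105 and 0.0933) and that of Os12g0140200 without WT replicate 3 (0.0566). That of Os12g0147200 was lost, too, without WT replicate 2 (0.0913), ospin1c ospin1d replicate 3 (0.0504), ospid C1 replicate 2 (0.0770) or ospid C2 replicate 2 (0.0531). When the other groups left the fit all 3 were lost (0.0698, 0.0739 and 0.0564), and with no filter those of Os12g0138050 (0.0523) and Os12g0147200 (0.0653). Os12g0147200 also fell in ospid C2, by 0.98 on the log2 scale (limma adjusted p = 0.0407), a call lost without WT replicate 1 or 2 (0.133 and 0.116), ospin1c ospin1d replicate 1 or 3 (0.0504 and 0.0573) or ospid C2 replicate 2 or 3 (0.121 and 0.149), with no filter (0.0800) and when the other groups left the fit (0.101).

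**Figure D3:**
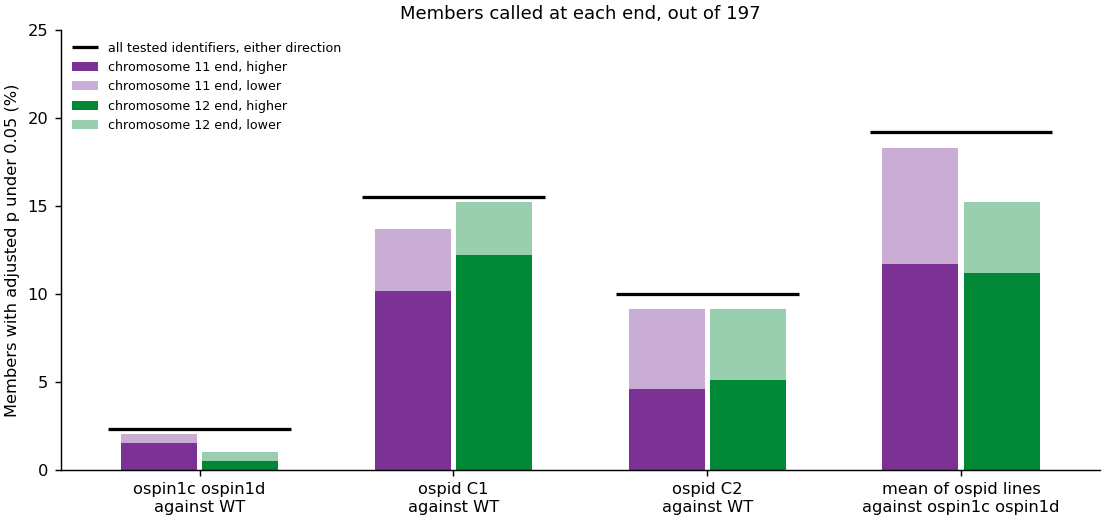
Share of the members of each end with an adjusted p under 0.05, for 4 comparisons (bars; dark part higher, light part lower), and the share of all 21250 tested identifiers (black lines). Every bar lay below its line, for instance 2.03% and 1.02% against 2.31% for ospin1c ospin1d against WT.

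The mean of the ospid lines was compared with ospin1c ospin1d, a contrast that uses no WT library as a reference. Here 66 members (16.8%) differed, 45 with more and 21 with less in ospid plants, against 19.2% of all tested identifiers, 12.2% upward and 6.96% downward. They numbered 36 at the chromosome 11 end and 30 at the chromosome 12 end, and the other 10 chromosome starts gave 15.3% to 22.6%. With median-ratio scaling 32 were higher and 32 lower, where 9.17% and 9.95% of all tested identifiers were. Leaving out ospin1c ospin1d replicate 1, 2 or 3 gave 34, 23 or 30 members.

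Os11g0100200, the second member from the start of chromosome 11, was at 21.7, 16.8 and 19.9 FPKM in ospid C1 libraries and 19.5, 16.5 and 18.3 FPKM in ospid C2 libraries, against 5.16, 4.32 and 12.7 in ospin1c ospin1d, and at 14.8, 15.8 and 16.8 in WT. The ospin1c ospin1d libraries lay below all 9 others. The difference between the ospid lines and ospin1c ospin1d was 1.36 on the log2 scale (SE 0.238, limma adjusted p = 0.00409), while ospin1c ospin1d against WT, at -1.13, did not pass (limma adjusted p = 0.0603). The first member, Os11g0100100, also lay lowest in ospin1c ospin1d, at 0.675 to 0.964 FPKM, against 1.34 to 2.22 FPKM in the ospid lines. Os11g0100100 reached 1 FPKM in no ospin1c ospin1d library and was chosen after its values were seen. Its log2 difference of 0.52, and its change of -0.25 in ospin1c ospin1d against WT, are thus a description.

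Os12g0140200 was lower in the ospid lines, at 1.81, 0.641 and 1.72 FPKM in ospid C1 libraries and 2.54, 2.26 and 1.31 FPKM in ospid C2 libraries, than in ospin1c ospin1d, at 5.74, 4.95 and 5.83. WT lay between them at 3.73, 3.06 and 3.46. The log2 difference was -1.30 (SE 0.192, limma adjusted p = 0.00161). Os11g0114900 averaged 14.1 ± 2.57 FPKM over both ospid lines (SD, n = 6) and 28.0 ± 6.07 FPKM in ospin1c ospin1d (SD, n = 3), a log2 difference of -0.94 (limma adjusted p = 0.00743). These 2 calls and that of Os11g0100200 held in all 19 alternatives. Os12g0147200 differed by -0.91 (limma adjusted p = 0.0213), lost without ospin1c ospin1d replicate 2 or 3 (adjusted p = 0.109 and 0.0630).

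A contrast of ospid C2 with ospid C1 was made, as both carry the same genotype label. No member was called by limma, while 48 (12.2%) had an unadjusted p under 0.05, as did 2223 (10.5%) of all tested identifiers, and voom on the recovered reads also called 0. Over all tested identifiers limma called 2 (0.00941%). The median log2 difference, ospid C2 minus ospid C1, was -0.0813 over the members and -0.0941 over all tested identifiers.

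The summed level of each end was within a narrow range in all groups. The members of the chromosome 11 end summed to 5392 ± 121 FPKM in ospin1c ospin1d, 5452 ± 79.4 in ospid C1, 5416 ± 67.9 in ospid C2 and 5456 ± 35.0 in WT (SD, n = 3 each). Those of the chromosome 12 end summed to 5377 ± 24.4 FPKM in ospin1c ospin1d, 5382 ± 286 in ospid C1, 5458 ± 80.9 in ospid C2 and 5341 ± 106 in WT. Each sum was 0.586% to 0.688% of all FPKM of a library. The ratio of the chromosome 11 end to the chromosome 12 end was 0.964 to 1.09 over the 12 libraries. With median-ratio scaling ospid C1 had the lowest sums, 4981 FPKM at the chromosome 11 end and 4910 FPKM at the chromosome 12 end. These sums are descriptions with no test, and 4 members of each end made up 41.0% and 40.0% of them.

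**Figure D4:**
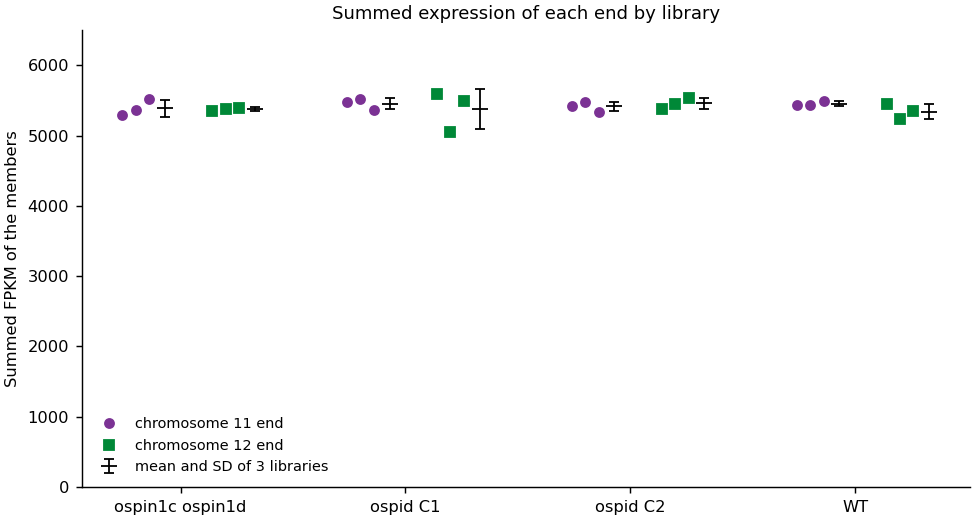
Summed FPKM of the members of each end in each library (circles, chromosome 11; squares, chromosome 12), with the mean and SD of 3 libraries per group in black. All 24 sums lay between 5056 and 5591 FPKM.

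The most abundant members reached similar levels at the ends. The 4 highest were Os11g0127900, Os11g0115100, Os11g0147800 and Os11g0148500 at one end, with means over 12 libraries of 761, 756, 403 and 308 FPKM. They were Os12g0114800, Os12g0124200, Os12g0123500 and Os12g0147800 at the other, at 759, 691, 486 and 222 FPKM. Most members were far lower: the median member stood at 6.40 FPKM at the chromosome 11 end and 7.13 FPKM at the chromosome 12 end, beside 7.92 FPKM over all tested identifiers. Of the members, 19 averaged 100 FPKM or more, 177 averaged under 5 FPKM, and 310 reached 1 FPKM in every library.

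Os11g0147800 changed among these. It was at 491, 561 and 493 FPKM in ospid C1, at 386, 443 and 442 in ospid C2, 321, 319 and 399 in ospin1c ospin1d, and 341, 306 and 329 in WT. The log2 change in ospid C1 was 0.66 (SE 0.106, limma adjusted p = 0.00381), held in all 19 alternatives. The ospid lines were above ospin1c ospin1d by 0.44 (limma adjusted p = 0.00969), lost without ospin1c ospin1d replicate 2 (adjusted p = 0.0602). In ospid C2 the change of 0.38 (limma adjusted p = 0.0452) was lost without any of 8 libraries (every WT library, ospin1c ospin1d replicates 1 and 2, ospid C1 replicate 3, ospid C2 replicates 2 and 3; adjusted p = 0.0573 to 0.150). It was also lost with median-ratio scaling (0.109), no filter (0.0741) and without the other groups in the fit (0.0814). Os11g0127900 fell by 0.56 in ospid C2 (limma adjusted p = 0.0159), lost without ospid C2 replicate 3 (adjusted p = 0.0676) and when the other groups left the fit (0.0700). The other 6 had no call.

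Members of the ends were then matched by the likeness of their values over the 12 libraries, a measure chosen after the values were seen. For each member the one at the other end with the highest Pearson correlation of log2(FPKM + 1) was found, and 72 pairs chose each other. In 25 of these (34.7%) the identifier numbers lay within 5000 of each other. For the 65 other pairs of chromosome starts this share was 7.89% to 33.9%, with a median of 19.5%. These pairs of starts had 4 to 26 such near pairs (median 11) among 25 to 92 that chose each other (median 58). The 25 near pairs thus lay close to the top of their range, and the share of 34.7% just above the highest of 33.9%. Whether the ends differ in this from other starts was not tested. The correlations are descriptions over 12 libraries that share groups and library-wide differences, and reads shared between copies would raise them.

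Of the 25, 7 pairs had r of 0.95 or more, where the other pairs of starts had 0 to 8. The highest was Os11g0113700 with Os12g0113500, described above, at r = 0.992 and lengths of at least 2045 and 2030 bases. Os11g0131900 followed Os12g0128700 (r = 0.985) at a lower level, with 4.11, 3.28 and 4.71 against 10.9, 9.65 and 12.8 FPKM in ospin1c ospin1d, and 1.94, 0.904 and 1.23 against 5.86, 4.04 and 5.03 FPKM in WT. Both were called in ospid C2 against WT, at log2 changes of 1.33 and 1.15, and in no other comparison.

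Os11g0115350 and Os12g0115000 (r = 0.981) varied widely within the ospid lines. Os12g0115000 was at 164, 13.6 and 102 FPKM in ospid C1, at 24.7, 63.3 and 45.3 in ospid C2, 210, 148 and 210 in ospin1c ospin1d, and 69.4, 55.6 and 77.6 in WT. Os11g0115350 was at 40.9, 7.86 and 27.4 FPKM in ospid C1, at 10.4, 20.1 and 12.8 in ospid C2, 51.0, 39.6 and 61.2 in ospin1c ospin1d, and 22.2, 16.3 and 20.7 in WT. Both were lowest of all 12 libraries in ospid C1 replicate 2 and high in each ospin1c ospin1d library. The ospid lines were below ospin1c ospin1d by log2 differences of -1.86 for Os12g0115000 and -1.49 for Os11g0115350, both called. The groups overlapped, with ospid C1 replicate 1 above ospin1c ospin1d replicate 2 for both members. Matching calls within a like pair follow in part from the choice on r.

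Os11g0107000 and Os12g0106300 (r = 0.970) were both called in ospid C1, at 0.90 and 0.86 on the log2 scale, and in ospid C2, at 0.95 and 0.99. Os11g0109900 and Os12g0109900 (r = 0.970) were both called in ospid C1, at 0.53 and 0.65, and in the ospid lines against ospin1c ospin1d, at 0.42 and 0.64. Os11g0108800 and Os12g0110300 (r = 0.956) were called in ospid C1, at 0.66 and 0.49, and in the ospid lines against ospin1c ospin1d, at 0.62 and 0.47. The pair Os11g0126900 and Os12g0123700 (r = 0.969) rested on 1 library. They stood at 7.61 and 5.43 FPKM in ospin1c ospin1d replicate 3 and at 0 to 1.29 and 0 to 1.19 FPKM in the other 11, and neither was called.

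**Figure D5:**
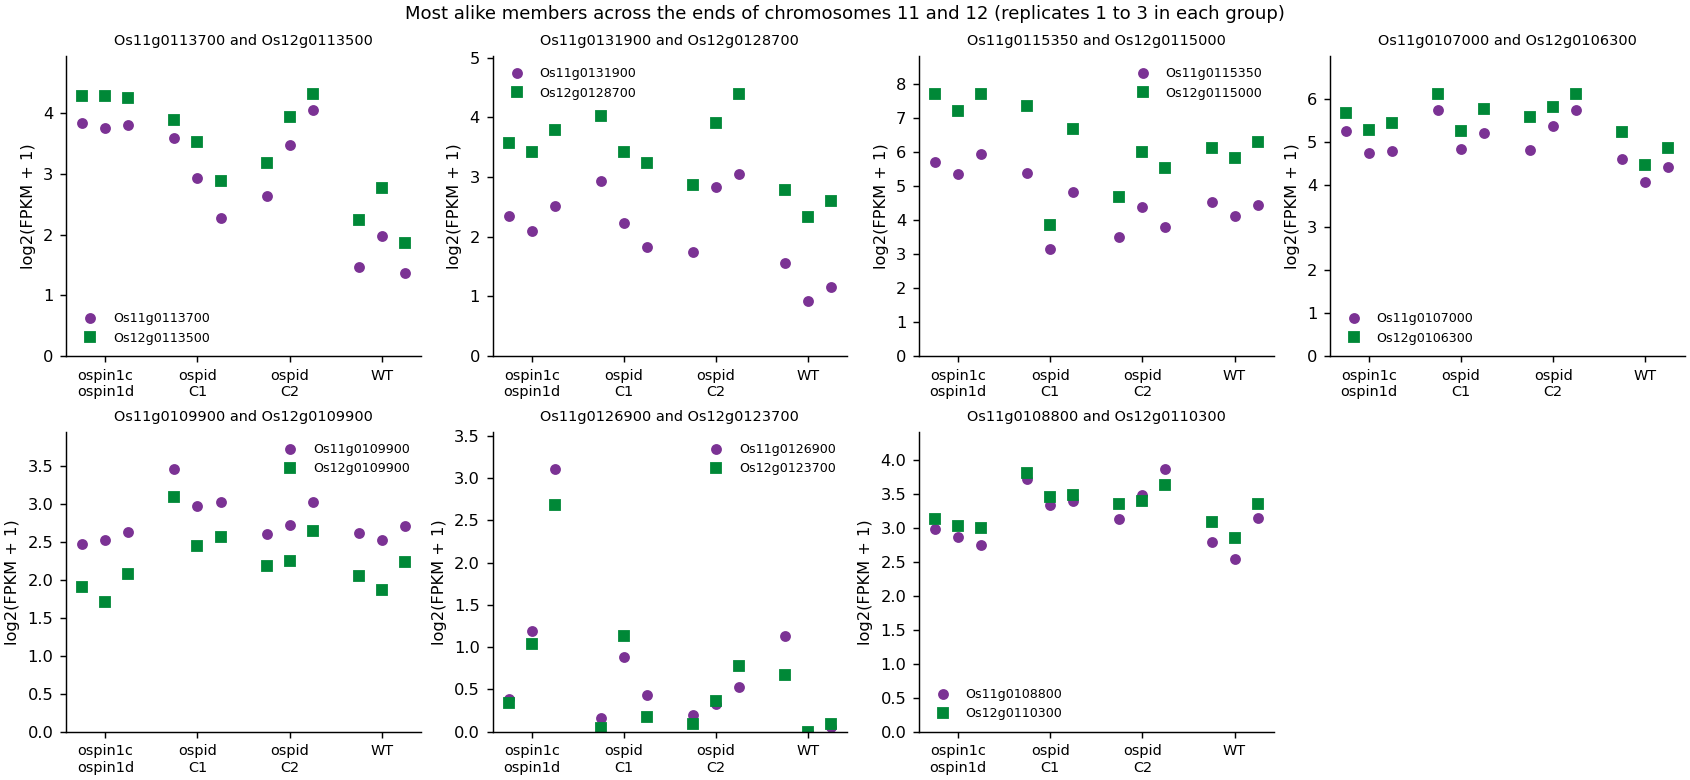
Log2(FPKM + 1) in each library (replicates 1 to 3 from left to right in each group) for the 7 pairs of members across the ends with r of 0.95 or more and numbers within 5000 (circles, chromosome 11; squares, chromosome 12). By the choice on r, the members of a pair had to move together from library to library. Os11g0126900 and Os12g0123700 were high in ospin1c ospin1d replicate 3 alone.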

How the data were processed

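Per the file headers, the authors deposited 1 FPKM value for each identifier in every library. IRGSP-1.0 is the build in the submitters' processing notes, which also list HTSeq 0.6.0, HISAT2 2.1.0 and Bowtie2 2.2.3 without saying what each did. Read totals, lengths and reads were recovered from the spacing of low FPKM values. With the total found, 100% of the lengths of 747 features were whole within 0.05 bases, against a median of 10.0% at other totals. Lengths and reads are lower bounds. All 12 libraries entered 1 limma fit (limma 3.58.1, R 4.3.3) on log2(FPKM + 1) with a mean per group and a mean-dependent prior, for the 21250 identifiers that passed the filter, with Benjamini-Hochberg adjustment over all of them and 0.05 as the threshold. The test was run on simulated data with independent noise per identifier and changes added at higher levels only. Those data held no library set apart and no library-wide shift, so this check does not cover such features of the real libraries. Groups come from the sample titles. Members and lists were chosen with earlier results of these data known. Members were named for each comparison (called, without overlap between groups, up to 4 in each direction by size of change), for level (4 at each end), for being among the 3 nearest to a targeted identifier on each side, or for being listed at 0 throughout a group and reaching 1 FPKM in every library of another. Those of like pairs, Os11g0100100 and members reaching 1 FPKM in ospid libraries alone were chosen after their values were seen. Alternatives were median-ratio scaling, no filter, a pseudocount of 0.1, only the groups compared, a replicate block, calls limited to log2 changes of 1 or more, voom on recovered reads, each library left out, and, added after seeing the data, quantile normalization. Of the 7 identifiers left out beforehand, 1 was not analysed here.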

Additional observations from a re-analysis of the deposited data

Results flagged for a closer look

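The log2 difference of the ospid lines (mean) minus ospin1c ospin1d had a limma adjusted p under 0.05 for 13 named members. It was 1.36 for Os11g0100200 and 1.04 for Os12g0133850, which were lowest in ospin1c ospin1d, 0.73 for Os12g0133900 and 0.44 for Os11g0147800. It was -1.30 for Os12g0140200. For Os11g0114900, Os12g0147200, Os11g0128300, Os11g0141400 and Os11g0111000 it was -0.94, -0.91, -0.87, -0.84 and -0.43. Of these, the calls of Os11g0111000 (adjusted p = 0.0607 to 0.168) and Os11g0141400 (0.0513 to 0.150) were each lost without any of 6 libraries, and with no filter (0.0573 and 0.0760). That of Os11g0111000 was also lost when the other groups left the fit (0.0519). These libraries were, for both, the 3 ospin1c ospin1d libraries, ospid C1 replicate 1 and ospid C2 replicate 3, and then ospid C1 replicate 3 for Os11g0111000 and WT replicate 2 for Os11g0141400. The other 3 passed the filter through the groups where they are high, so their values are a description, not evidence of a difference, and depend on the pseudocount. They were 3.79 for Os12g0117700, 1.36 for Os12g0113600 and -1.38 for Os11g0115400 with a pseudocount of 1, and 6.97, 3.81 and -2.53 with 0.1.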

How the results depend on the processing

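Of 893 values of named calls under alternatives, 756 kept their direction and side of the threshold, and 24 of 47 calls did so in all 19. Among these 24 are 7 calls of Os12g0117700, Os12g0113600 and Os11g0115400, which passed the filter through the groups where they are high. The calls of Os11g0135000 in both ospid lines and of Os11g0146550 in ospin1c ospin1d and ospid C2 are also among them. They are likewise a description. Why the other calls were lost was not tested. Counts of called members moved by over 1.5 times as follows. With ospin1c ospin1d set against WT, 6 became 15 when other groups were dropped from the fit, and 5 to 11 over single libraries left out. The 57 of ospid C1 became 31 with no filter, 22 when other groups were dropped, 33 under the replicate block and 11 among log2 changes of 1 or more; leaving out libraries gave 15 to 84. The 36 of ospid C2 became 23 with no filter, 12 when other groups were dropped and 13 among log2 changes of 1 or more; leaving out libraries gave 14 to 60. The 66 between the ospid lines and ospin1c ospin1d became 9 among log2 changes of 1 or more; leaving out libraries gave 23 to 88. The fold limit can only remove calls.

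Replicate numbers gave no sign of pairing: same-numbered libraries correlated at -0.227 to 0.0694 in their deviations from group means. The replicate block gave 5, 33, 26, 54 and 0 calls in the order of comparisons above, with ospid C2 against ospid C1 last. It lost 9 named calls (adjusted p = 0.0543 to 0.0701): Os11g0113700 and Os12g0113500 in ospid C1, Os11g0135000 in ospin1c ospin1d, Os12g0112000 and Os12g0147200 in both ospid lines, Os11g0147800 in ospid C2, and Os11g0141400 between the ospid lines and ospin1c ospin1d.

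The summed FPKM moved by more than 1 SD with median-ratio scaling, at the chromosome 11 end to 5562 in ospin1c ospin1d, 4981 in ospid C1 and 5654 in WT, and at the chromosome 12 end to 5547 in ospin1c ospin1d, 4910 in ospid C1 and 5535 in WT. Without the most abundant member, by construction, the sums for ospin1c ospin1d, ospid C1, ospid C2 and WT were 4607, 4673, 4821 and 4572 at the chromosome 11 end and 4604, 4810, 4553 and 4557 at the chromosome 12 end. Members near 1 FPKM rest on few reads: Os11g0138900, just inside the filter, had a third-highest value of 1.01 FPKM, and Os12g0149300, just outside, 0.958 FPKM.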
